A study of Mus musculus with 7 samples.

Results

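The 10 genes described here make up a short list of regulatory T cell (Treg) lineage genes, namely Foxp3, Ikzf2, Ikzf4, Lrrc32, Gpr83, Izumo1r, Nrp1, Plagl1, Capg and Swap70. They were chosen by name, and all 10 were found by symbol among the 53465 Ensembl gene IDs of the deposited count table. The transcriptomes came from CD4+CD25+ cells sorted by flow cytometry from mouse liver, 7 libraries in 3 groups. KO_MCD stands for CD73 knockout mice fed a methionine/choline-deficient diet for 4 weeks (3 libraries). WT_MCD stands for wild type C57BL/6 mice on the same deficient diet for the same time (2 libraries). WT_NCD stands for wild type C57BL/6 mice on a normal control diet, also for 4 weeks (2 libraries). The deficient diet is widely used to bring about fatty liver with inflammation, and CD73, encoded by Nt5e, is the surface enzyme that turns AMP into adenosine. The sources used here do not give the age or sex of the mice, the tissues in which the knockout acts, or whether replicates are separate animals. A p-value thus speaks of the spread among these libraries alone, and that spread may be technical. Knockout cells from the control diet were not analysed here, and whether the knockout acts alike on both diets was not tested.

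Treg restrain other immune cells, and the forkhead factor Foxp3, encoded on the X chromosome, holds their program in place. Foxp3 works in complexes with partner factors such as Eos (Ikzf4), while Helios (Ikzf2), of the same Ikaros family, is abundant in Treg that arise in the thymus. Several surface proteins mark mouse Treg beside CD25: GARP (Lrrc32), which docks latent TGF-beta, the receptor Gpr83, the folate receptor relative Izumo1r (FR4) and neuropilin 1 (Nrp1). Capg caps actin filaments, Swap70 links membrane signals to the cytoskeleton, and Plagl1 is a zinc finger transcription factor. CD25 is also carried by activated conventional T cells, so a CD4+CD25+ gate enriches Treg without defining them.

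The libraries held 19731501 to 24398738 counts each. A gene with no count could still reach 0.123 to 0.152 CPM (counts per 1000000 counts, after scaling of library sizes in what follows; limit of 3 counts, counting error only). The targeted gene followed the labels, with Nt5e at 5.88 to 14.5 CPM in KO_MCD, 87.6 to 177 CPM in WT_MCD and 241 to 243 CPM in WT_NCD. T cell genes were present in every library: the summed CPM of 18 pan T cell markers was 9125 to 11148 in KO_MCD, 7630 to 15223 in WT_MCD and 13618 to 19553 in WT_NCD. RNA of other cells was present too. The summed CPM of 18 Kupffer cell and macrophage markers was 7455 to 12765 in KO_MCD, 2445 and 33045 in WT_MCD and 10931 and 1201 in WT_NCD. WT_MCD replicate 2 thus had the highest macrophage level and the lowest T cell level of the 7 libraries. In such mixed samples, fewer Treg and less RNA per Treg cannot be told apart.

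**Figure D1:**
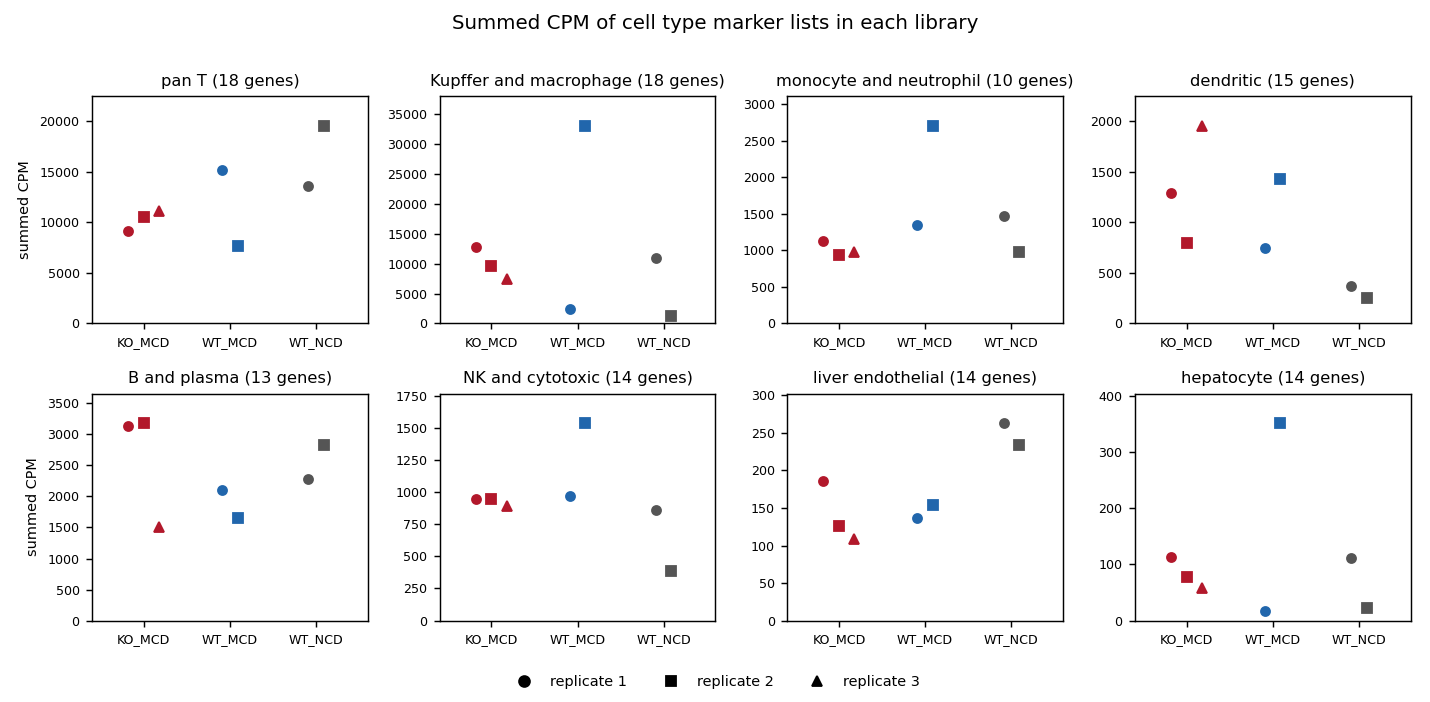
Summed CPM of 8 cell type marker lists (vertical axes from 0) in each library, by group, with marker shapes for the replicate number. WT_MCD replicate 2 has the highest macrophage sum (33045 CPM) and the lowest pan T sum (7630 CPM), while the dendritic sums of both WT_NCD libraries (370 and 253 CPM) lie under those of the other 5.

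Promoter sequence is shown for 2 of the genes, Foxp3 because it defines the lineage and Gpr83 because it had the largest difference with diet among the members counted in every library. Each sequence is the 250 bases before a RefSeq transcription start, on the GRCm38.p6 build and the gene's own strand, 5′ to 3′. Foxp3 has 2 such starts in RefSeq, at chrX:7579426-7579675 (window, plus strand) and chrX:7580233-7580482 (plus strand), and the Gpr83 window is chr9:14859960-14860209 (plus strand). Capitals mark matches to motifs searched on both strands: TGTGGT (RUNX), TGTTTAC (forkhead), TTCNNNGAA (STAT), GGAAA (NFAT) and GGGCGG (Sp and Kruppel-like factors).
Foxp3, upstream start: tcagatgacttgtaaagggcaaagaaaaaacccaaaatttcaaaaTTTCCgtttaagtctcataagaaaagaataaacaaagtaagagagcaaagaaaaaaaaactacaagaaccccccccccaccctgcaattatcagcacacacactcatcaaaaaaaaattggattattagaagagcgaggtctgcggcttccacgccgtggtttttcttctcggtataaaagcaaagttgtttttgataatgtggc
Foxp3, downstream start: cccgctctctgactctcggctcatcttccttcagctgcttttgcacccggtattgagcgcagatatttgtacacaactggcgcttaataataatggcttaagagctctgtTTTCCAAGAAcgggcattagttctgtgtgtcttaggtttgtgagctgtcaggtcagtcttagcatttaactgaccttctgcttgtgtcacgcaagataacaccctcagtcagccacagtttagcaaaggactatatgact
Gpr83: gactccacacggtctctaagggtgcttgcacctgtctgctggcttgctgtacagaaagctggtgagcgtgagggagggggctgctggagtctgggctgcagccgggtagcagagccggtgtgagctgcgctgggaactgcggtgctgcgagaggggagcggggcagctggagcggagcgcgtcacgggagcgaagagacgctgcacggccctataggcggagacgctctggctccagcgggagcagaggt
The upstream Foxp3 window had a single NFAT match, the downstream Foxp3 window had an NFAT match overlapping a STAT match, and the Gpr83 window had none of the 5 motifs. Of 32851 RefSeq promoter windows of the same length, 55.6% held the NFAT letters and 7.02% the STAT letters. The RUNX, forkhead and Sp letters occurred in 14.0%, 3.17% and 32.7% of them. The Gpr83 window was 66.8% G and C, against 37.6% and 46.0% in the upstream and downstream Foxp3 windows. These matches describe the letters of the windows and not binding.

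Per length, the actin-capping gene Capg was the most abundant member and Plagl1 the least. Levels of different genes were compared as counts per kilobase of merged exons, scaled to the same sum in each library. The medians over the 7 libraries were 1543 for Capg, 695 for Izumo1r, 123 for Foxp3, 95.9 for Ikzf2, 88.7 for Swap70, 85.6 for Nrp1, 64.8 for Lrrc32, 41.2 for Ikzf4, 23.0 for Gpr83 and 0.370 for Plagl1. Capg stood above Izumo1r, and Izumo1r above Foxp3, in 7 of 7 libraries. From Foxp3 down to Gpr83, neighbours in this order differed on average by less than the larger of their SDs over the libraries, as for Swap70 and Nrp1 (mean difference 2.30, larger SD 36.7). Gpr83 stood above Plagl1 in 7 of 7 libraries. The Foxp3 level lay above 85.5% to 94.1% of the genes counted in the same library, and the lineage factor was therefore among the abundant transcripts of every group. Plagl1 was not counted in WT_MCD replicate 1 and had a single count in WT_MCD replicate 2, while the other 9 members were counted in all 7 libraries.

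WT_MCD against WT_NCD asks how the sorted cells of wild type liver differ on the deficient diet. In the fit, 8 of the 10 Treg identity genes were lower on the deficient diet and Capg and Swap70 were higher, where 47.2% of all tested genes were lower and 52.3% higher. The median fitted log2 fold change was -0.90 over the 10, against 0.04 over all 14784 genes tested. T cell genes as a whole were also lower: 16 of the 18 pan T cell markers, with a median of -0.52 and 7 without overlap. Higher were 14 of 15 dendritic markers (median 2.84) and 13 of 14 natural killer and cytotoxic markers (median 2.56). So were 9 of 9 monocyte and neutrophil markers tested (2.97), 11 of 13 B and plasma cell markers (1.44) and 14 of 17 macrophage markers tested (0.79). Of 10 hepatocyte markers tested, 6 were lower. The part of these shifts in the members' values was not tested. None of the 10 passed the test over all genes (edgeR quasi-likelihood test with Benjamini-Hochberg adjustment, threshold 0.05; smallest adjusted p 0.731), and neither did any other gene (0% called). At an unadjusted p under 0.05, 4 members were lower (Foxp3, Gpr83, Nrp1 and Plagl1) and 0 higher, where 2.04% of all tested genes were lower and 3.96% higher (6% in either direction). The groups did not overlap for 5 lower members, Lrrc32 in addition to those 4, and for 0 higher ones, where the shares over all genes were 14.8% and 16.8% (31.6% in either direction). All 10 members passed the filter on low counts.

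KO_MCD against WT_MCD asks what differs without CD73 on the deficient diet. Here 7 of the 10 genes were higher in the knockout and 3 lower (Ikzf2, Nrp1 and Capg), where 47.9% of all tested genes were higher and 51.9% lower. The median log2 fold change of the 10 was 0.22, against -0.03 over all genes tested. Without WT_MCD replicate 2, Ikzf4, Izumo1r and Swap70 turned to -0.24, -0.15 and -0.24. Lower were 14 of 18 pan T cell markers (median -0.16), 17 of 17 macrophage markers tested (-1.53) and 8 of 9 monocyte and neutrophil markers tested (-2.48). Of the B and plasma cell markers, 11 of 13 were higher (1.71). The part of these shifts in the members' values was not tested. Again 0 members and 0% of all genes passed (edgeR, smallest adjusted p 1). Gpr83 and Plagl1 were higher and Capg lower at an unadjusted p under 0.05, where 1.2% of all tested genes were higher and 2.04% lower (3.25% in either direction). Foxp3, Gpr83 and Plagl1 were higher without overlap and Capg was lower without overlap, against 8.37% and 9.66% of all genes (18% in either direction). The WT_MCD libraries stand in both comparisons, so a low WT_MCD value lowers the diet difference and raises the knockout difference at once.

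KO_MCD against WT_NCD differs in diet and genotype together. Of the 10 members, 8 were lower and Plagl1 and Swap70 higher, where 46.9% of all tested genes were lower and 52.8% higher. Their median log2 fold change was -0.43, against 0.06 over all genes. All 18 pan T cell markers were lower too, with a median of -0.70 and 11 without overlap, so the median of the Treg identity genes lay above that of T cell genes. None passed over all genes (edgeR, smallest member adjusted p 0.349; 0% of genes called). Nrp1 and Capg were lower at an unadjusted p under 0.05, where 4.25% of all genes were lower and 4.72% higher (8.97% in either direction). Nrp1 and Capg were also lower without overlap and Swap70 higher without overlap, against 12.8% and 13.4% of all genes (26.1% in either direction).

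**Figure D2:**
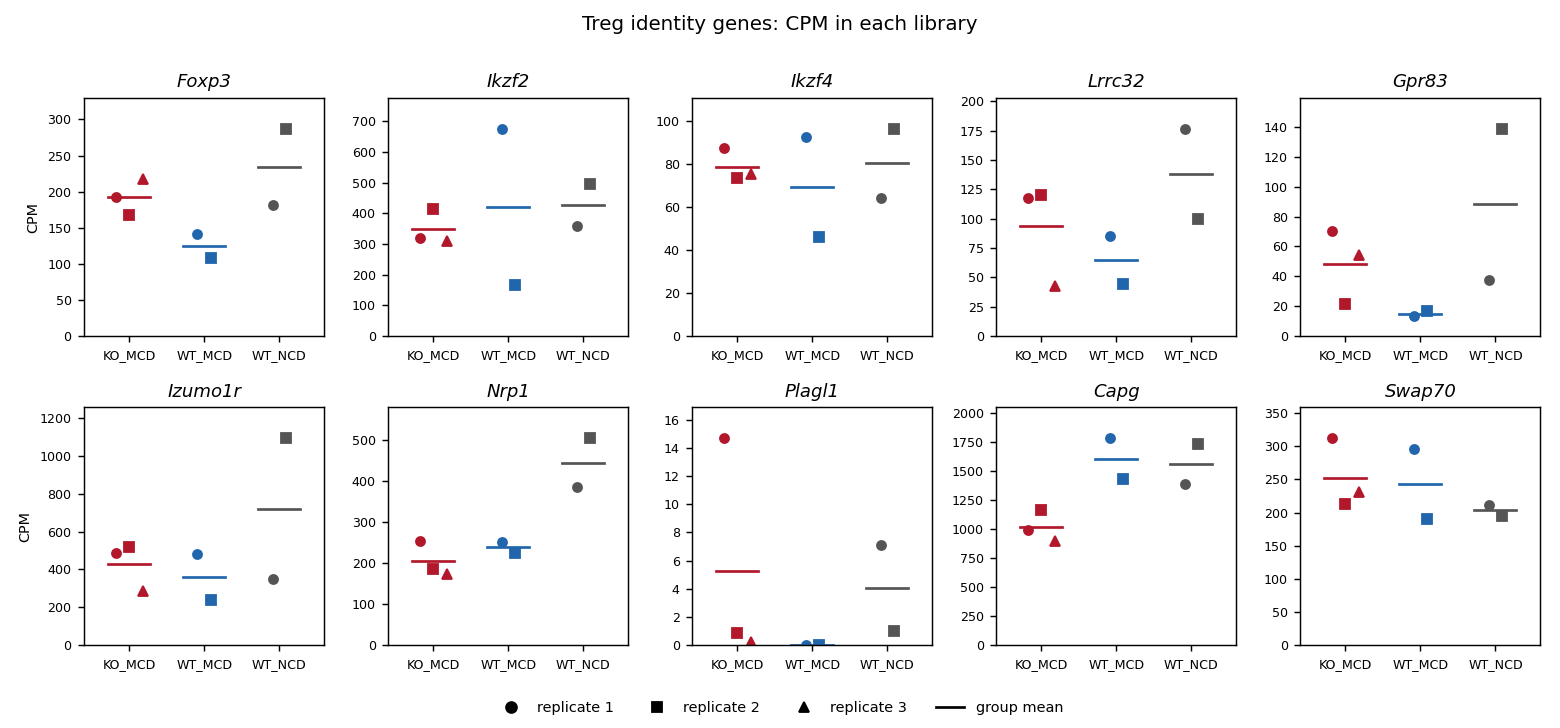
CPM of the 10 Treg identity genes (vertical axes from 0, a scale for each gene) in each library of KO_MCD (red), WT_MCD (blue) and WT_NCD (grey), with marker shapes for the replicate number and lines for group means. Foxp3 is lowest in the 2 WT_MCD libraries (141 and 108 CPM), and Gpr83 there (13.4 and 16.6 CPM) lies under all 5 other libraries.

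Foxp3 (ENSMUSG00000039521, chromosome X, 7573644 to 7595245, plus strand, GRCm38) had 192, 167 and 218 CPM in the KO_MCD libraries, 141 and 108 CPM in WT_MCD, compared with 181 and 287 CPM in WT_NCD. Both WT_MCD values lay under the other 5, and the KO_MCD and WT_NCD values overlapped. Foxp3 averaged 124 ± 23.7 CPM in WT_MCD against 234 ± 74.7 CPM in WT_NCD (SD, n = 2 each; log2 fold change -0.91, SE 0.34, edgeR adjusted p = 0.803). It averaged 193 ± 25.2 CPM in KO_MCD (SD, n = 3) against the same WT_MCD mean (log2 fold change 0.63, SE 0.31, edgeR adjusted p = 1). For KO_MCD against WT_NCD the log2 fold change was -0.28 (SE 0.30, adjusted p = 0.871 by the same edgeR test). Leaving out 1 library at a time gave -1.20 to -0.53 for the diet difference, the smaller one without WT_NCD replicate 2, and 0.45 to 0.88 for the knockout difference, the lower value without the macrophage-rich WT_MCD replicate 2. Foxp3 shares exon bases with 4 other annotated genes, of which Flicr, a long noncoding RNA on the same strand, covers 18.6% of its merged exon bases. Ccdc22, on the opposite strand, covers 12.9% of them and had 0 counts in the table. Reads in shared bases cannot be assigned with certainty, since the sources used here do not give the counting rule or strand setting.

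Ikzf4 and Ikzf2, the Ikaros family genes among the 10 members, did not follow a common pattern. Ikzf4 (Eos) had 87.7, 73.5 and 75.3 CPM in KO_MCD, 92.8 and 46.0 CPM in WT_MCD, compared with 64.5 and 96.4 CPM in WT_NCD. The 3 groups overlapped, and the log2 fold change was 0.18 (SE 0.38) for KO_MCD against WT_MCD and -0.21 (SE 0.42) for WT_MCD against WT_NCD (edgeR adjusted p = 1 for both). Ikzf2 (Helios) had 318, 415 and 309 CPM in KO_MCD, 674 and 167 CPM in WT_MCD, compared with 359 and 495 CPM in WT_NCD. The WT_MCD libraries held both the highest and the lowest Ikzf2 value of all 7 and differed 4.03-fold, so no direction can be read for this group. The fitted difference of KO_MCD against WT_MCD was -0.28 (SE 0.53), which became 1.09 when WT_MCD replicate 1 was left out and -0.96 when replicate 2 was. The remaining Ikaros genes Ikzf1, Ikzf3 and Ikzf5 were tested as well, and 0 of the 5 family members passed in any comparison. Ikzf3 (Aiolos) had 196, 305 and 216 CPM in KO_MCD, against 325 and 526 CPM in WT_NCD, without overlap (log2 fold change -0.83, SE 0.34, edgeR adjusted p = 0.544).

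Gpr83, a G protein-coupled receptor enriched in mouse Treg, had the largest fitted differences of the 9 members counted in every library in both comparisons that involve WT_MCD. Gpr83 (ENSMUSG00000031932, chromosome 9, 14860210 to 14870789, plus strand) had 70.2, 21.2 and 54.0 CPM in KO_MCD, 13.4 and 16.6 CPM in WT_MCD, compared with 37.7 and 139 CPM in WT_NCD. Both WT_MCD libraries lay under the other 5 in CPM, and they differed 2.0-fold in summed pan T cell CPM. Per 1000 pan T cell counts, WT_MCD replicate 2 had 2.17 and KO_MCD replicate 2 had 2.0. The part of T cell content in the Gpr83 values was not tested. The mean was 15.0 ± 2.26 CPM in WT_MCD against 88.1 ± 71.3 CPM in WT_NCD (SD, n = 2 each; log2 fold change -2.56, SE 0.76, edgeR adjusted p = 0.731). It was 48.5 ± 25.0 CPM in KO_MCD (SD, n = 3; log2 fold change against WT_MCD 1.69, SE 0.70, edgeR adjusted p = 1). The diet difference ran from -3.21 to -1.32 with 1 library left out, the smaller without WT_NCD replicate 2. With library sizes set to pan T cell counts it was -1.69 (SE 0.81). With DESeq2, the diet difference of Gpr83 passed over all genes (log2 fold change -2.54, adjusted p = 0.0394), as did 2.12% of all genes, and its adjusted p ran from 0.0394 to 1 over the fits run.

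Izumo1r, whose protein FR4 resembles the folate receptors, lies 15.0 kb from Gpr83 on the opposite strand (ENSMUSG00000031933, chromosome 9, 14885814 to 14903949, minus strand). It had 488, 519 and 286 CPM in KO_MCD, 479 and 240 CPM in WT_MCD, compared with 352 and 1092 CPM in WT_NCD. WT_NCD replicate 2 alone stood apart, and the groups overlapped. The log2 fold change of WT_MCD against WT_NCD was -1.01 (SE 0.60, edgeR adjusted p = 0.822), and without WT_NCD replicate 2 it was 0.04. The pattern of Izumo1r in WT_MCD thus differed from that of its neighbour Gpr83: the WT_MCD libraries differed 2.0-fold for Izumo1r, as did their pan T cell sums, and replicate 1 was the lower one for Gpr83.

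Lrrc32 (GARP), the docking receptor for latent TGF-beta on activated Treg, had 118, 120 and 43.0 CPM in KO_MCD, 85.5 and 44.4 CPM in WT_MCD, compared with 176 and 99.4 CPM in WT_NCD. Both WT_NCD libraries lay above both WT_MCD libraries, while KO_MCD replicate 3 had the lowest value of all 7. The fitted difference (log2) was -1.09 (SE 0.59, edgeR adjusted p = 0.812) for WT_MCD against WT_NCD and 0.53 (SE 0.54, edgeR adjusted p = 1) for KO_MCD against WT_MCD. With 1 library left out the first ran from -1.65 without WT_MCD replicate 1 to -0.61 without WT_NCD replicate 1, and the second from 0.13 without WT_MCD replicate 2 to 1.12 without WT_MCD replicate 1. The diet difference was -0.66 (SE 0.67) with library sizes set to pan T cell counts. The knockout difference was 0.97 (SE 0.41, edgeR adjusted p = 1) with the replicate number as a block. KO_MCD replicate 3 is alone in its block, so its low value has no part in that difference. With this library left out of the main fit the knockout difference was 0.88. Platelets and endothelial cells also carry GARP. The summed CPM of 8 platelet markers was 21.8 to 79.2 in KO_MCD, 61.8 to 108 in WT_MCD and 103 to 133 in WT_NCD, with 2, 5 and 3 of the 8 counted in these groups and the defining marker Itga2b at 0 in 6 of 7 libraries. The part of platelet RNA in the Lrrc32 values was not tested. Among 10 genes of the GARP and latent TGF-beta list, 7 were tested and 0 passed. The ligand Tgfb1 had 35.3, 27.9 and 42.0 CPM in KO_MCD, 5.67 and 4.25 CPM in WT_MCD, compared with 2.02 and 2.96 CPM in WT_NCD, without overlap between KO_MCD and either wild type group (log2 fold change 2.82, SE 0.53, edgeR adjusted p = 1 against WT_MCD). Itgav, the integrin subunit that takes part in releasing TGF-beta, had 178 and 89.3 CPM in WT_MCD against 68.1 and 46.6 CPM in WT_NCD (log2 fold change 1.22, SE 0.41, edgeR adjusted p = 0.777). Furin, the protease that cleaves the TGF-beta precursor, had 47.6 and 30.5 CPM in WT_MCD against 14.8 and 17.0 CPM in WT_NCD (log2 fold change 1.30, SE 0.54, edgeR adjusted p = 0.808). Both were also higher without overlap in KO_MCD against WT_NCD (log2 fold change 0.96, SE 0.38 for Itgav and 1.24, SE 0.51 for Furin). In that comparison 5 of the 7 genes tested were higher and 0 lower without overlap, against 13.4% and 12.8% of all tested genes.

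Nrp1, the coreceptor for semaphorins and VEGF that marks thymus-derived Treg in mice, was lower in all 5 libraries from the deficient diet. It had 253, 185 and 174 CPM in KO_MCD, 251 and 225 CPM in WT_MCD, compared with 385 and 503 CPM in WT_NCD. The WT_NCD values lay above the other 5, and KO_MCD and WT_MCD overlapped. The fitted difference (log2) was -1.12 (SE 0.28, edgeR adjusted p = 0.349) for KO_MCD against WT_NCD, -0.90 (SE 0.31, edgeR adjusted p = 0.779) for WT_MCD against WT_NCD and -0.22 (SE 0.28, edgeR adjusted p = 1) for KO_MCD against WT_MCD. With 1 library left out, the difference of KO_MCD against WT_NCD ran from -1.31 to -0.91. With library sizes set to pan T cell counts it was -0.41 (SE 0.44), and the difference of WT_MCD against WT_NCD was -0.23 (SE 0.48). Per 1000 pan T cell counts Nrp1 had 27.8, 17.5 and 15.6 in KO_MCD, 16.5 and 29.5 in WT_MCD, and 28.2 and 25.7 in WT_NCD, and the groups overlapped. In DESeq2 Nrp1 passed for KO_MCD against WT_NCD (log2 fold change -1.10, adjusted p = 0.0167, with 0.0167 to 0.823 over the fits run), together with 3.8% of all genes. It did not pass for WT_MCD against WT_NCD (DESeq2 adjusted p = 0.211). Liver endothelial cells also express Nrp1, and the summed CPM of their 14 markers was 108 to 187 in KO_MCD, 136 to 154 in WT_MCD and 233 to 263 in WT_NCD. Of the 14 markers, 11, 14 and 10 were counted in these groups, and the defining markers Stab2 and Clec4g reached at most 25.1 and 10.4 CPM, with Clec4g at 0 in KO_MCD replicate 2. Gene by gene, 8 of the 10 endothelial markers tested were higher in WT_MCD than in WT_NCD, unlike the sum. Plasmacytoid dendritic cells express Nrp1 as well, and the summed CPM of 15 dendritic markers was 800 to 1954 in KO_MCD, 750 to 1425 in WT_MCD and 253 to 370 in WT_NCD. The part of these cells in the Nrp1 values was not tested. In the neuropilin and semaphorin list, which includes Nrp1, 8 of 13 genes were tested and 0 passed. Nrp2, the paralogue of Nrp1, was not counted in WT_NCD and had 0.186 and 37.0 CPM in WT_MCD, nearly all of it in replicate 2.

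Capg, a macrophage and Treg gene that caps actin filaments, was lower in CPM in the knockout than in either wild type group. It had 994, 1161 and 901 CPM in KO_MCD, 1781 and 1434 CPM in WT_MCD, compared with 1387 and 1737 CPM in WT_NCD. All 3 knockout libraries lay under all 4 wild type libraries, and the wild type groups overlapped. Capg averaged 1019 ± 132 CPM in KO_MCD (SD, n = 3) against 1608 ± 246 CPM in WT_MCD (SD, n = 2; log2 fold change -0.66, SE 0.25, edgeR adjusted p = 1). Against WT_NCD, with 1562 ± 248 CPM (SD, n = 2), the fitted difference (log2) was -0.62 (SE 0.25, edgeR adjusted p = 0.544). With 1 library left out the 2 differences ran from -0.81 to -0.46 and from -0.77 to -0.44. With library sizes set to pan T cell counts the difference against WT_NCD turned to 0.0668 (SE 0.39), and that against WT_MCD was -0.61 (SE 0.38). Per 1000 pan T cell counts Capg had 109, 110 and 80.8 in KO_MCD, 117 and 188 in WT_MCD, and 102 and 88.8 in WT_NCD, so KO_MCD overlapped WT_NCD and lay under WT_MCD. Macrophages and monocytes also express Capg. All 17 macrophage markers tested were lower in KO_MCD than in WT_MCD in the fit (median log2 fold change -1.53), and all 18 were counted in each group. Their sums overlapped, with 7455 to 12765 CPM in KO_MCD. In WT_MCD the sum was 33045 CPM in replicate 2 but 2445 CPM in replicate 1, under all 3 KO_MCD libraries. Capg was highest in that replicate 1 (1781 CPM). The summed CPM of 10 monocyte and neutrophil markers was 931 to 1123 in KO_MCD, 1354 to 2705 in WT_MCD and 985 to 1468 in WT_NCD, with 9, 9 and 8 of them counted. The part of these cells in the Capg values was not tested.

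Swap70, which binds membrane lipids and acts on the cytoskeleton in B cells and other leukocytes, had 312, 213 and 231 CPM in KO_MCD, 297 and 190 CPM in WT_MCD, compared with 212 and 195 CPM in WT_NCD. The KO_MCD values lay just above both WT_NCD values, and WT_MCD overlapped both. The fitted difference (log2) was 0.31 (SE 0.31, edgeR adjusted p = 0.849) for KO_MCD against WT_NCD and 0.05 (SE 0.31, edgeR adjusted p = 1) for KO_MCD against WT_MCD. The summed CPM of 13 B and plasma cell markers was 1504 to 3181 in KO_MCD, 1658 to 2104 in WT_MCD and 2287 to 2824 in WT_NCD, and these overlapped. Gene by gene, 11 of the 13 were higher in KO_MCD than in WT_NCD (median log2 fold change 3.84), as were 11 of 13 in KO_MCD than in WT_MCD (1.71). The defining marker Cd79a had 251, 210 and 79.7 CPM in KO_MCD, 37.2 and 72.6 CPM in WT_MCD, compared with 14.5 and 10.6 CPM in WT_NCD. The part of these cells in the Swap70 values was not tested.

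Plagl1, a zinc finger factor that appears in mouse Treg signatures, was near the detection limit in most libraries. Its raw counts were 302, 19 and 5 in KO_MCD, 0 and 1 in WT_MCD, and 141 and 24 in WT_NCD. KO_MCD replicate 1 held most of the knockout counts. Pooled over libraries, the ratio of KO_MCD to WT_MCD was 208 (95% exact interval 37.0 to 8229, for counting error only) on a single WT_MCD count. The ratio of WT_MCD to WT_NCD was 0.00643 (95% exact interval 0.000162 to 0.0363). The fitted log2 fold changes had SEs of 2.75 in both comparisons (edgeR adjusted p = 1 and 0.803). All but 2 of the 7 libraries had under 30 counts of Plagl1 and its level was under 2 CPM in those 5.

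**Figure D3:**
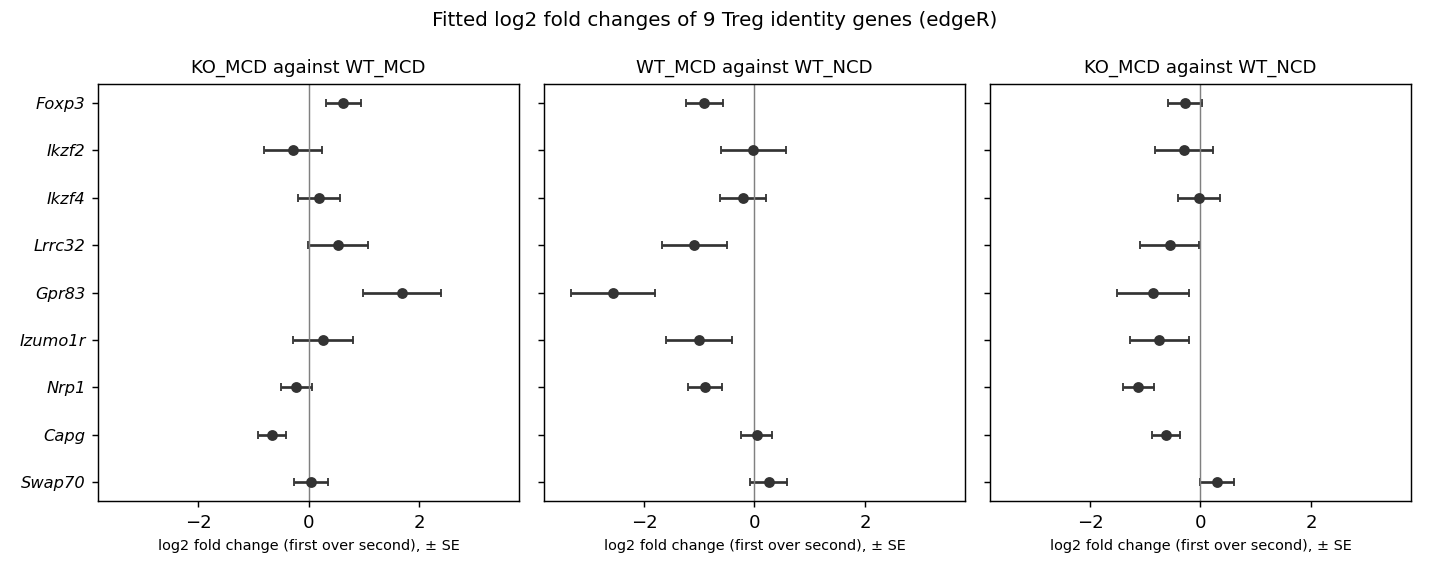
Fitted log2 fold changes (horizontal axes; points, with bars for ± SE from edgeR) of 9 Treg identity genes in the 3 comparisons, the first group over the second. Plagl1 is left out because it rests on a single count in WT_MCD, and no gene shown passed over all genes tested.

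The T cell content differed between libraries, so the members were also set against the 18 pan T cell genes of the same library. On this scale the 2 WT_MCD libraries, which differed 2.0-fold in pan T cell CPM, held nearly the same ratio for several genes. Per 1000 pan T cell counts they had 6.10 and 6.03 counts of Ikzf4, 31.5 and 31.4 of Izumo1r, 5.62 and 5.81 of Lrrc32 and 12.4 and 12.3 of Cd3e. Foxp3, Nrp1, Capg, Swap70 and Gpr83 were instead higher per T cell count in replicate 2, and Ikzf2 was 2.02-fold higher in replicate 1. Between these 2 libraries, then, Ikzf4, Izumo1r and Lrrc32 differed by about as much as T cell content did, and Foxp3 by less.

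Relative to T cell genes, Foxp3 was higher in the knockout than in either wild type group. It had 21.1, 15.8 and 19.5 counts per 1000 pan T cell counts in KO_MCD, 9.27 and 14.1 in WT_MCD, and 13.3 and 14.7 in WT_NCD. All 3 knockout libraries lay above all 4 wild type libraries, and the WT_MCD libraries no longer lay both under the WT_NCD libraries. With library sizes set to pan T cell counts, the log2 fold change of Foxp3 was 0.69 (SE 0.40, edgeR adjusted p = 1) for KO_MCD against WT_MCD, -0.26 (SE 0.43, edgeR adjusted p = 0.865) for WT_MCD against WT_NCD and 0.43 (SE 0.40, edgeR adjusted p = 0.676) for KO_MCD against WT_NCD. This scaling moved the median of all tested genes by 0.67 for WT_MCD against WT_NCD and by 0.66 for KO_MCD against WT_NCD, and by -0.000326 for KO_MCD against WT_MCD. The 0.43 of Foxp3 against WT_NCD therefore lay below the median of 0.72 that all tested genes had on this scale, while its 0.69 against WT_MCD lay above a median of -0.03.

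Ikzf4 was ordered by group on this scale, with 9.61, 6.95 and 6.76 counts per 1000 pan T cell counts in KO_MCD, 6.10 and 6.03 in WT_MCD, and 4.74 and 4.93 in WT_NCD. No 2 groups overlapped, and the log2 fold change of KO_MCD against WT_NCD was 0.69 (SE 0.41, edgeR adjusted p = 0.525), close to the median of 0.72 of all tested genes. Swap70 had 34.2, 20.2 and 20.7 in KO_MCD, 19.5 and 25.0 in WT_MCD, and 15.6 and 9.98 in WT_NCD, with WT_NCD under the other 5. Gpr83 was under both WT_NCD values in WT_MCD, with 7.70, 2.0 and 4.84 in KO_MCD, 0.879 and 2.17 in WT_MCD, and 2.77 and 7.09 in WT_NCD, so that KO_MCD and WT_MCD overlapped. Over the 10 members, the groups did not overlap per T cell count for 3 higher and 1 lower in KO_MCD against WT_MCD, against 7.6% and 4.61% of all genes. For WT_MCD against WT_NCD they were 3 higher and 2 lower, against 28.6% and 3.77%. For KO_MCD against WT_NCD they were 4 higher and 0 lower, against 31.8% and 3.35%. No member passed with this scaling in any comparison.

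**Figure D4:**
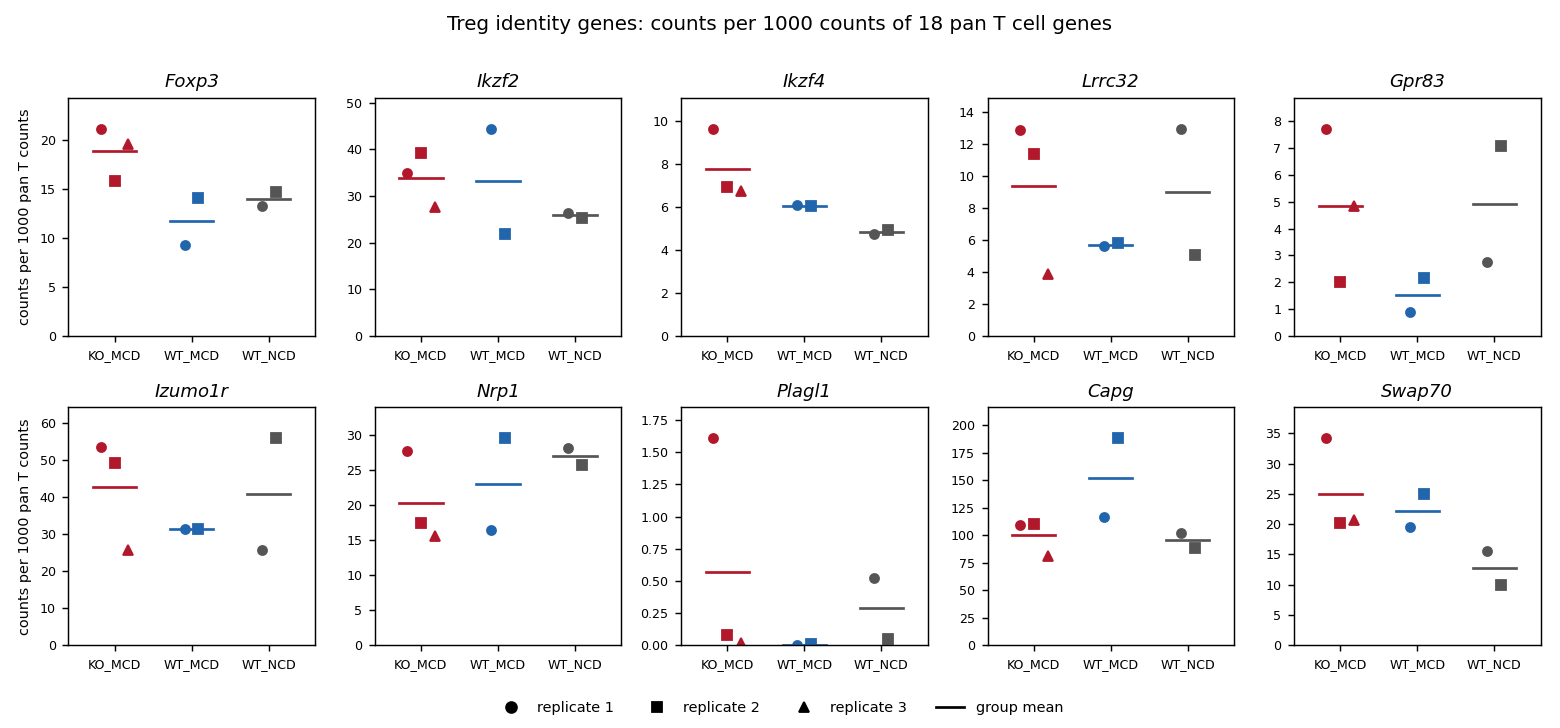
Counts of each Treg identity gene per 1000 counts of 18 pan T cell genes in the same library (vertical axes from 0, a scale for each gene), by group, with marker shapes for the replicate number and lines for group means. The 3 KO_MCD libraries have 15.8 to 21.1 for Foxp3, above all 4 wild type libraries (9.27 to 14.7).

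The genes whose level kept the most constant ratio to Foxp3 over the 7 libraries were not Treg markers. Likeness was measured as the SD of the log2 ratio to Foxp3 (log2 CPM with a prior count of 2), over the 9707 tested genes that averaged 5 CPM or more. The 5 smallest SDs belonged to Sptbn1, a spectrin subunit (0.16), Npm1, the nucleolar protein nucleophosmin (0.17), the pseudogene Sms-ps (0.17), Txnip, an inhibitor of thioredoxin (0.17), and Sipa1l1 (0.20). The median over all genes ranked was 0.74, and Foxp3 itself had an SD of 0.45 in log2 CPM. Among the Treg identity genes Ikzf4 came closest (SD 0.34, rank 202), followed by Nrp1 (0.52), Izumo1r (0.53) and Swap70 (0.54). Ikzf2, Capg, Lrrc32 and Gpr83 had SDs of 0.60, 0.63, 0.76 and 0.83, so the last 2 lay above the median of all genes. Cd3e (0.45) and Cd4 (0.50) lay closer to Foxp3 than all members but Ikzf4. These SDs describe 7 libraries whose cell mixture differed. The pan T cell sum ran from 7630 to 19553 CPM and the macrophage sum from 1201 to 33045 CPM. The part of that mixture in the SDs was not tested.

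Genes that regulate or bind Foxp3 were split in direction. Of 40 such genes, all tested, 0 passed in any comparison (edgeR), and the median log2 fold change of WT_MCD against WT_NCD was 0.09, with 23 higher and 17 lower. At an unadjusted p under 0.05, 6 were lower and 1 higher on the deficient diet, where 2.04% of all tested genes were lower and 3.96% higher. Lower were Dnmt1, the maintenance DNA methyltransferase, with 110 and 88.9 CPM in WT_MCD against 183 and 308 CPM in WT_NCD (log2 fold change -1.30, SE 0.35, edgeR adjusted p = 0.705), Lef1 (-1.22, SE 0.37) and the forkhead factor Foxp1 (-0.91, SE 0.30). Nfatc1, a factor activated by calcium signals, was higher, with 325 and 260 CPM in WT_MCD against 163 and 170 CPM in WT_NCD (log2 fold change 0.81, SE 0.32, edgeR adjusted p = 0.808). Of the same 40 genes 0 had an unadjusted p under 0.05 in KO_MCD against WT_MCD. In KO_MCD against WT_NCD 8 were lower and 0 higher at that level (4.25% and 4.72% of all tested genes), led by the ETS family factors Elf1 and Ets1 (log2 fold change -0.93, SE 0.26 for each). Elf1 had 457, 365 and 385 CPM in KO_MCD against 664 and 871 CPM in WT_NCD. All 18 pan T cell markers were also lower in that comparison (median -0.70). For WT_MCD against WT_NCD, 16 of the 18 were lower and 2 higher (median -0.52). The part of T cell content in the values of these regulators was not tested.

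Other Treg signature genes, 27 in all and each tested, had a median log2 fold change of -0.09 for WT_MCD against WT_NCD, 0.01 for KO_MCD against WT_MCD and 0.07 for KO_MCD against WT_NCD, and 0 passed. Penk, which encodes proenkephalin, had 359, 506 and 366 CPM in KO_MCD, 722 and 94.2 CPM in WT_MCD, compared with 67.1 and 43.0 CPM in WT_NCD. All 5 libraries from the deficient diet lay above both WT_NCD libraries (log2 fold change 2.90, SE 0.81, edgeR adjusted p = 0.404 for KO_MCD against WT_NCD). Tnfrsf9 (4-1BB), a receptor of activated Treg, had 466, 422 and 485 CPM in KO_MCD against 142 and 242 CPM in WT_NCD (log2 fold change 1.25, SE 0.38, edgeR adjusted p = 0.436). Yet in this comparison more of the 27 genes were lower than higher without overlap. They were 3 higher and 6 lower, with the targeted gene Nt5e among the lower, against 13.4% and 12.8% of all tested genes. Of 13 genes that are low in Treg, all tested, 0 passed. In the fit 9 of the 13 were higher and 4 lower in KO_MCD against WT_MCD (median log2 fold change 0.55). Without overlap 4 were higher and 0 lower there, against 8.37% and 9.66% of all tested genes. For WT_MCD against WT_NCD 8 were higher and 5 lower (0.16), and for KO_MCD against WT_NCD 10 were higher and 3 lower (0.81). In the same order, 47.9%, 52.3% and 52.8% of all tested genes were higher, with medians of -0.03, 0.04 and 0.06. Tcf7, a factor of naive T cells, had 153 and 108 CPM in WT_MCD against 173 and 420 CPM in WT_NCD (log2 fold change -1.18, SE 0.46). Bhlhe41, a repressor, had 28.5, 23.0 and 10.2 CPM in KO_MCD, 19.0 and 24.6 CPM in WT_MCD, compared with 1.16 and 0.0859 CPM in WT_NCD, so all 5 libraries from the deficient diet stood above the others (log2 fold change 5.04, SE 1.17, edgeR adjusted p = 0.326 for KO_MCD against WT_NCD). Markers of B cells and macrophages, which can express Bhlhe41, are given above, and their part was not tested.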

How the data were processed

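RNA-seq was done on 7 libraries of CD4+CD25+ cells from mouse liver. The authors deposited raw counts per Ensembl gene, with a column for each library. The submitters' processing notes name HISAT2 2.1.0 and GRCm38; the sources used here do not give the counting tool or strand setting. Columns were matched to samples by title. Symbols, coordinates and merged exon lengths came from the GENCODE annotation of GRCm38 (53360 IDs found, 105 not), and promoter sequence from RefSeq.

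The deposited counts were fitted in edgeR 4.0.16 (R 4.3.3) over all 7 libraries with a coefficient for each group, TMM scaling, filterByExpr at a minimum count of 10 and the quasi-likelihood test. This left 14784 genes, over which p-values were adjusted by Benjamini-Hochberg (threshold 0.05). Fitted fold changes use a prior count of 0.125, and CPM uses TMM-scaled library sizes. The common dispersion of 0.833 corresponds to a between-library coefficient of variation of 91.3%. On simulated data for KO_MCD against WT_MCD (13896 genes), 0% of 2-fold and 10% of 4-fold changes were found. For WT_MCD against WT_NCD (13819 genes) the shares were 0% and 6%.

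The members, the gene lists and the tests were chosen with earlier results of these data known. Beyond the members, genes were named by a rule: an unadjusted p under 0.05 without overlap of groups, at most 3 per list and direction, and the 5 genes most like Foxp3. Flicr, Ccdc22, Ikzf1 and Ikzf5 were named outside it, after their values were seen. Alternatives were other scalings and low-count filters, DESeq2 1.42.0, limma 3.58.1 voom, the replicate number as a block, each pair of groups alone and each library left out.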

Additional observations from a re-analysis of the deposited data

How the results depend on the processing

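No member passed the edgeR threshold in any comparison under any scaling, filter, sample choice, block or library left out, and limma voom called 0 members too. DESeq2 called 1 member for WT_MCD against WT_NCD (Gpr83) and 1 for KO_MCD against WT_NCD (Nrp1). Over all genes DESeq2 called 314 for WT_MCD against WT_NCD, 50 for KO_MCD against WT_MCD and 562 for KO_MCD against WT_NCD, against 0 in each with edgeR. With no low-count filter edgeR called 54, 1 and 140 genes in the same order of comparisons. Between libraries of the same replicate number, deviations from group means correlated at -0.10 to 0.03. In groups of 2 libraries these deviations mirror each other, so the values cannot show whether the libraries were paired. The fit with the replicate block, in which KO_MCD replicate 3 is alone in its block, called 0 genes and 0 members in each comparison. The crossed replicate block on the 2 wild type groups, added after the data were seen, also called 0 genes and 0 members.

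Library sizes set to pan T cell counts turned the sign of Ikzf2 (0.36) and Ikzf4 (0.33) for WT_MCD against WT_NCD, of Ikzf2 (0.0356) for KO_MCD against WT_MCD, and of Foxp3 (0.43), Ikzf2 (0.39), Ikzf4 (0.69), Lrrc32 (0.0576), Izumo1r (0.0660) and Capg (0.0668) for KO_MCD against WT_NCD. By construction this scaling raises genes where pan T cell counts are low, and its part in each turn was not tested. For KO_MCD against WT_MCD it moved the median of all tested genes by only -0.000326. Library totals turned Ikzf2 (0.0457) for WT_MCD against WT_NCD and Ikzf4 (0.0835) for KO_MCD against WT_NCD, upper quartile scaling turned Capg (-0.0138) for WT_MCD against WT_NCD, and limma voom turned Ikzf2 (0.0215) for KO_MCD against WT_MCD and Plagl1 (-0.80) for KO_MCD against WT_NCD. The cause was not tested for these 5.

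With 1 library left out, signs turned in 21 of 210 refits. For WT_MCD against WT_NCD the log2 fold change ran from -1.37 to 0.66 for Ikzf2, -0.82 to 0.21 for Ikzf4, -1.60 to 0.0391 for Izumo1r, -0.14 to 0.22 for Capg and -0.11 to 0.54 for Swap70. For KO_MCD against WT_MCD it ran from -0.96 to 1.09 for Ikzf2, -0.24 to 0.81 for Ikzf4, -0.15 to 0.89 for Izumo1r and -0.24 to 0.44 for Swap70. For KO_MCD against WT_NCD it ran from -0.58 to 0.0947 for Foxp3, -0.29 to 0.29 for Ikzf4, -1.52 to 0.37 for Gpr83, -1.34 to 0.30 for Izumo1r and -2.88 to 2.34 for Plagl1. On simulated data the edgeR test found 0% of 2-fold changes in each comparison.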

Other observations

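Flicr, a long noncoding RNA transcribed at the Foxp3 locus that is known in mice to limit Foxp3 expression, was named after its values were seen. Its level was 3.25, 0 and 0.238 CPM in the KO_MCD libraries, 3.44 and 4.73 CPM in the WT_MCD libraries and 6.12 and 18.3 CPM in the WT_NCD libraries. The 3 knockout libraries lay under all 4 wild type libraries. Of all tested genes, 9.66% were lower without overlap against WT_MCD and 12.8% against WT_NCD. The nearest libraries, KO_MCD replicate 1 and WT_MCD replicate 1, had raw counts of 67 and 74. Per 1000 pan T cell counts they had 0.357 and 0.226, so KO_MCD and WT_MCD overlapped on that scale. The Foxp3 values of the knockout lay above both WT_MCD values and overlapped those of WT_NCD, and a link between the 2 genes was not tested. The log2 fold change of Flicr was -1.81 (SE 1.76, edgeR adjusted p = 1) for KO_MCD against WT_MCD and -3.39 (SE 1.82, edgeR adjusted p = 0.604) for KO_MCD against WT_NCD, so the spread between libraries was large. The exons of Flicr share 853 bases with those of Foxp3 on the same strand, and the sources used here do not say how reads there were counted.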
